A study of Mus musculus with 21 samples.

Results

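The genes described here encode voltage-gated and related ion channels: the pore-forming and auxiliary subunits of potassium, sodium and calcium channels and the chloride channels and transporters of the ClC family. They were chosen from the count table by mouse gene symbol (beginning with Kcn, with Scn and a digit, with Cacn or with Clcn), kept where the annotation calls the gene protein-coding, and Kcnab1 and Scn3b were left out by the rule. This gave 141 of 46071 genes, in 13 families by subunit type. Of these, 61 passed the filter on low counts and were tested, among 12658 genes tested in all. The other 80 were too low to test: 7 had 0 counts in every library and 39 averaged under 0.1 CPM (counts scaled to the library total, with TMM factors). The highest untested member was Kcne1l, with a mean of 1.016 CPM.

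A skeletal muscle fibre fires an action potential through voltage-gated sodium channels, carries it inward along the transverse tubules, and couples it to contraction through the L-type calcium channel, which acts mainly as a voltage sensor for calcium release. Potassium channels and the chloride channel ClC-1 then repolarise the membrane and hold it at rest. Loss of this balance is known to cause myotonia and periodic paralysis, and fibres that lose their nerve take up channels of immature muscle, among them the small-conductance potassium channel SK3.

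The muscles came from mice lacking the transcription factors FoxO1, FoxO3 and FoxO4 in skeletal muscle (triple knockout, TKO) and from littermates with the floxed alleles and no knockout (floxed), on a mixed C57 and 129 background. Cre recombinase was driven by the skeletal actin promoter ACTA1, so other cells of the muscle keep the 3 genes. Diabetes was induced with streptozotocin (STZ), which kills insulin-producing beta cells, at 150 mg/kg (females received a further 75 mg/kg on day 3). Mice entered the study when random glucose exceeded 300 mg/dL. The groups were STZ TKO (n = 6), STZ floxed (n = 5), TKO (n = 6) and floxed (n = 4), and each library was made from quadriceps and gastrocnemius powdered together. In such bulk tissue, fewer cells of a type and less RNA per cell cannot be told apart. Separate animals are not stated for the libraries, so p-values measure the spread between libraries.

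Libraries held 2951290 to 7687823 counts (median 5665819), and 1 count was worth 0.130 to 0.369 CPM. Foxo4 was at most 12.7 CPM in knockout libraries and at least 124 CPM in floxed ones, and Foxo1 at most 26.7 and at least 36.4 CPM. Foxo3 overlapped, at 73.7 to 122 CPM in TKO and 74 to 233 CPM in STZ TKO libraries. Floxed libraries had 64.1 to 89.4 CPM and STZ floxed libraries 79.9 to 114 CPM. These counts therefore do not show the loss of Foxo3. They include exons outside the deleted part, and whether that explains the overlap was not tested. The fast-fibre genes Ckm, Actn3 and Myh4 were abundant in every library, the atrial marker Myl7 had 0 counts in all 21, and the cardiac marker Myh6 had 1.08 to 70.3 CPM. The neuronal markers were low: Rbfox3, Tubb3, Syt1 and Snap25 had at most 2, 10, 16 and 18 counts in a library. Some libraries stood apart. STZ floxed library 17 had the lowest level of 10 skeletal fibre markers, -1.79 (mean log2 CPM after subtraction of each gene's mean), against -0.46 to 0.43 in the other STZ floxed libraries. STZ TKO libraries 4 and 15 and TKO library 20 had macrophage marker levels of 2.08, 2.02 and 2.33, and TKO libraries 16 and 6 had 1.25 and 1.14. Every knockout library had a macrophage level of -0.57 or above, and every floxed library, with or without STZ, had -0.678 or below. A fit with this level as a covariate therefore cannot fully separate it from genotype. All 14 macrophage markers were called higher in the knockout effect averaged over STZ, and their summed level was 274 to 2490 CPM in STZ TKO, 169 to 272 CPM in STZ floxed, 277 to 1957 CPM in TKO and 150 to 195 CPM in floxed libraries. Of 14 denervation and acetylcholine receptor genes, 7 were called higher in that contrast, and library 20 was highest, at 2.11.

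Per kilobase of exon, the channels of excitation-contraction coupling and of the fast action potential were by far the most abundant. Cacna1s, the pore of the skeletal L-type calcium channel, averaged 359 CPM per kb over the 21 libraries and took 25.2% of the summed per-kb level of all members. Its gamma subunit Cacng1 followed at 223 CPM per kb, then the potassium channel Kcna7 (Kv1.7) at 181 CPM per kb, and the adult muscle sodium channel Scn4a (Nav1.4) had 123 CPM per kb. The 5 highest members took 71.0% of the summed level. Also among the 10 highest were the sodium channel beta subunit Scn4b, the calcium channel subunits Cacna2d1 and Cacnb1, the chloride channel Clcn1 and the inward rectifier Kcnj12, and the 10 together took 89.4%.

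**Figure D1:**
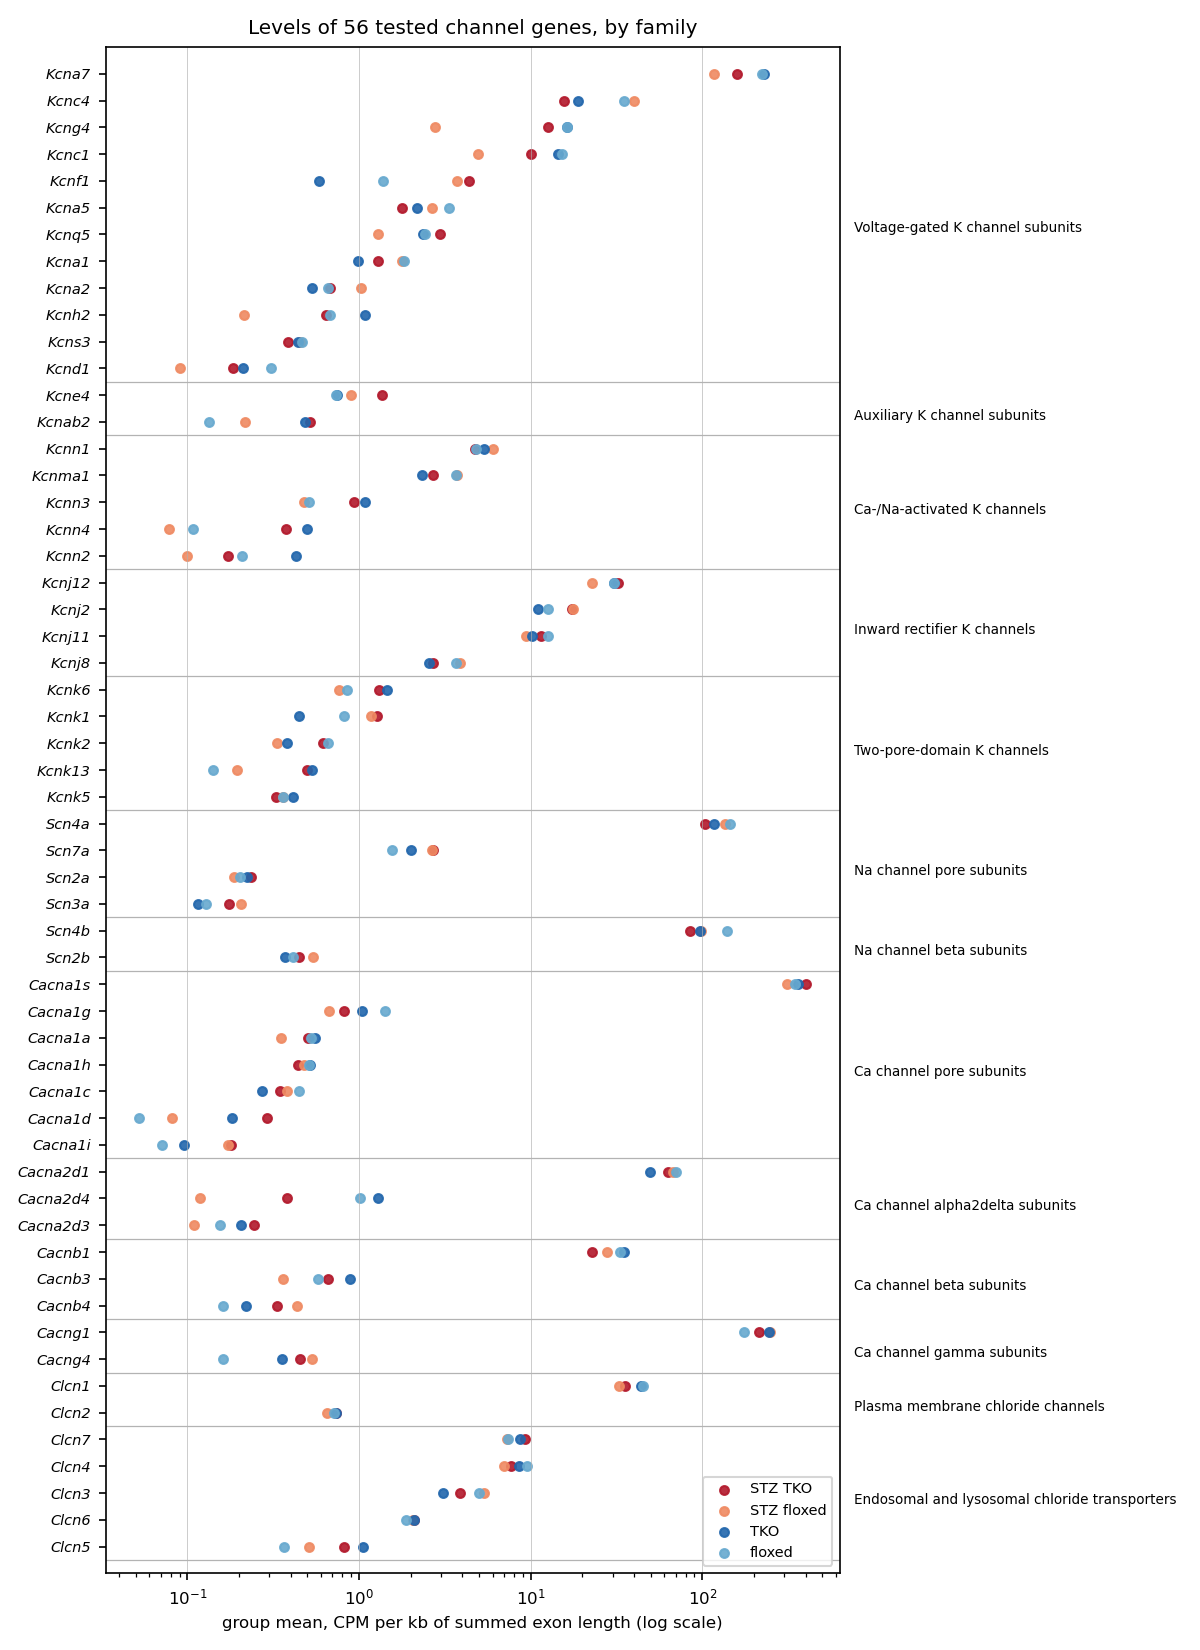
Group mean level of 56 tested channel genes in CPM per kb of exon (log axis), with 1 point per group and genes ordered by family. Cacna1s, Cacng1, Kcna7 and Scn4a have the highest means plotted, and Kcng4, Kcnc1 and Cacna2d4 have their STZ floxed point well to the left of the other groups.

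In the comparisons of 2 groups, the differences lay mostly in voltage-gated potassium channel subunits and the calcium channel subunit Cacna2d4. None of the abundant coupling channels passed the test. In STZ floxed against floxed muscle, 5 of 61 members passed the threshold, all lower, among them Cacna2d4, Kcng4, Kcnc1 and Kcna7. A member was called when its adjusted p was under 0.05 in edgeR's quasi-likelihood test with Benjamini-Hochberg adjustment over all 12658 genes. In this comparison 1.35% of all genes were called, against 8.20% of the members. In STZ TKO against STZ floxed muscle, 6 members passed, 9.84% against 4.89% of all genes: Kcng4, Kcnq5, Kcnc1, Cacna2d4 and Kcnh2 were higher and Kcnc4 was lower. Both comparisons use the same STZ floxed libraries, so a low level there lowers the one and raises the other. In STZ TKO against TKO muscle 1 member passed, Kcnf1, which was higher, and 0.142% of all genes were called. In TKO against floxed muscle no member passed edgeR's test, DESeq2 called 1 (Kcnc4), and edgeR called 0.514% of all genes. There 14 members had an unadjusted p under 0.05 in edgeR's test. The share of all genes at that unadjusted cut was not taken, so the 14 cannot be read as an excess.

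**Figure D2:**
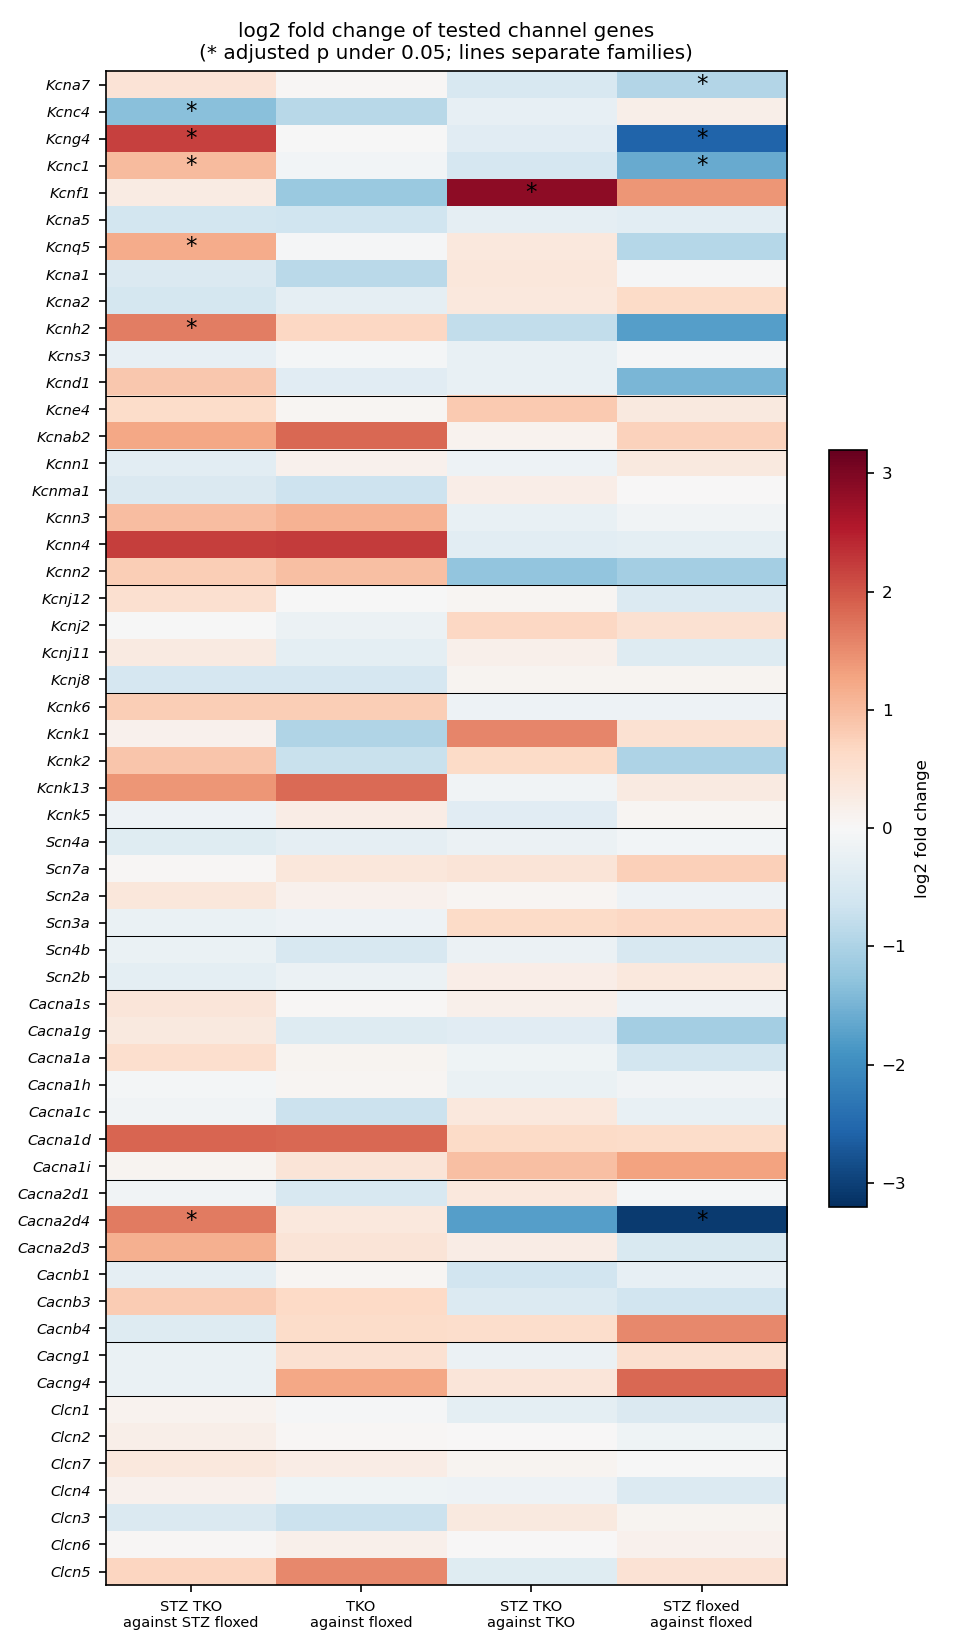
Log2 fold change of 56 tested channel genes in the 4 comparisons of 2 groups, the first-named group over the second, with red for higher and blue for lower and an asterisk where the adjusted p was under 0.05. The asterisks in the STZ floxed against floxed column are all on blue cells, at Kcna7, Kcng4, Kcnc1 and Cacna2d4.

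Averaging over the other factor gave more calls. The knockout effect averaged over STZ called 11 members, 8 higher and 3 lower, or 18.0% against 9.80% of all genes. The STZ effect averaged over genotype also called 11, 2 higher and 9 lower, against 4.54% of all genes. The interaction asks whether the knockout effect differs with and without STZ. In edgeR 6 members had an unadjusted p under 0.05, a cut at which the share of all genes was not taken. After adjustment no member was called in edgeR or in DESeq2, and edgeR called 0.0079% of all genes. So none of the differences between the STZ and untreated knockout effects described below passed a test of the difference itself.

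The family of voltage-gated potassium channel subunits holds 40 members, 15 of them tested. Its median log2 fold change was -0.90 in STZ floxed against floxed muscle, with 4 called lower and 11 of 15 below 0, beside -0.10 over all 61 members and 0.02 over all genes. In STZ TKO against STZ floxed muscle its median was 0.44, with 4 called higher and 1 lower, beside 0.28 over the members and 0.04 over all genes. In TKO against floxed muscle the median was -0.08 and in STZ TKO against TKO -0.25. The summed level of the family was 686 ± 85.0 CPM in STZ TKO, 573 ± 48.0 CPM in STZ floxed, 880 ± 248 CPM in TKO and 945 ± 107 CPM in floxed libraries (SD), with Kcna7 the largest part.

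Kcnc4, Kcnc1 and Kcng4 are shown first because they hold the 2 lowest adjusted p of this family in STZ TKO against STZ floxed muscle (Kcnc4 and Kcng4) and in STZ floxed against floxed muscle (Kcnc1 and Kcng4). Kcnc4 (Kv3.4) and Kcnc1 (Kv3.1) are pore-forming subunits of the Kv3 type. Kcng4 (Kv6.4) is a silent subunit that conducts only when it assembles with a conducting subunit. Their promoters, from RefSeq on GRCm38.p6 (250 bases before to 50 after the start, 5′ to 3′ on the gene's strand), are printed with matches to the E-box CANNTG, the site class of muscle bHLH factors, in capitals. Kcnc4 lies at chr3:107458849-107459148 on the minus strand, Kcnc1 at chr7:46396218-46396517 on the plus strand and Kcng4 at chr8:119635631-119635930 on the minus strand.
Kcnc4: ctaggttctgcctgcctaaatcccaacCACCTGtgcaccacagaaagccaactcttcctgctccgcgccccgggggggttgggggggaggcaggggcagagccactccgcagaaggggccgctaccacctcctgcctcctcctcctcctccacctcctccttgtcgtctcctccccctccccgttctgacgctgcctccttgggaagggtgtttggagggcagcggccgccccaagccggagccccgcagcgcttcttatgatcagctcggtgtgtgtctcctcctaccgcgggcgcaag
Kcnc1: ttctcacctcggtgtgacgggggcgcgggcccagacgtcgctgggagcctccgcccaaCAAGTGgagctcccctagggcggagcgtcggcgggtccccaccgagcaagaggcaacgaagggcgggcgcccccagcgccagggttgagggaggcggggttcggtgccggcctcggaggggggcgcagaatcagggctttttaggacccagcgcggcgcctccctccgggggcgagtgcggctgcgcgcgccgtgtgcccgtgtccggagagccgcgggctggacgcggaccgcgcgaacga
Kcng4: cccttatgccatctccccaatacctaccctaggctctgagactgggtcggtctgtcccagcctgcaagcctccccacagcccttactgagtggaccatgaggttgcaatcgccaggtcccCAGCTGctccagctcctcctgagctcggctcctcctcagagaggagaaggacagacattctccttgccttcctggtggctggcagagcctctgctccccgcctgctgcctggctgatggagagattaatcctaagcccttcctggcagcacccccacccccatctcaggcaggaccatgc
Each window holds 1 E-box match, and 72.31% of all 32851 mouse promoter windows hold at least 1. The GC content was 66.7% for Kcnc4, 74.7% for Kcnc1 and 61.3% for Kcng4, against a median of 52.7% over all windows. The FoxO binding element GTAAACA, searched on both strands, was in none of these windows and in none of the 64 windows of the 44 tested members that have one, against 3.65% of all windows. The insulin response element CAAAACA, on both strands, was in 3 of those 64 windows, those of Kcnj8, Kcnk2 and Kcns3, against 6.28% of all. These letters describe a short window only.

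Kcnc4 (chromosome 3, 107438303 to 107459552, GRCm38) was the member with the lowest adjusted p in both the knockout effect under STZ and the averaged knockout effect. It had 48.9, 57.4 and 69.1 CPM (lowest, median, highest) in STZ TKO libraries, against 175, 144, 132, 177 and 103 CPM in STZ floxed libraries. Without STZ it had 33.7, 62.9 and 105 CPM in TKO libraries, against 156, 116, 126 and 111 CPM in floxed libraries. Within each treatment the knockout and floxed values did not overlap. The log2 fold change was -1.34 ± 0.23 (SE; edgeR adjusted p = 0.000926) in STZ TKO against STZ floxed muscle and -0.88 ± 0.24 (adjusted p = 0.0898, not called; -1.01 and 0.0345 with the run of library codes as a term) in TKO against floxed muscle. Averaged over STZ it was -1.11 ± 0.16 (edgeR adjusted p = 0.000125). The call under STZ was kept when each of the 21 libraries was left out in turn. With the macrophage marker level as a covariate the adjusted p was 0.0518 under STZ and 0.103 averaged, with log2 fold changes of -1.12 and -0.89. For STZ against no STZ its log2 fold change was -0.27 ± 0.22 in TKO and 0.20 ± 0.25 in floxed muscle, neither past the threshold.

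Kcnc1 (chromosome 7, 46396497 to 46438704) showed another pattern, with its lowest level in the STZ floxed group. It had 59.3, 101 and 132 CPM (lowest, median, highest) in STZ TKO libraries, against 48.0, 49.5, 63.6, 32.0 and 40.9 CPM in STZ floxed libraries. Untreated muscle had 84.6, 124.5 and 230 CPM in TKO libraries, against 163, 124.5, 104 and 184 CPM in floxed libraries. All STZ floxed libraries lay below all untreated ones, while 2 of the 6 STZ TKO libraries, 8 and 11, lay below the highest STZ floxed value. The log2 fold change was -1.62 ± 0.28 (edgeR adjusted p = 0.00612) in STZ floxed against floxed muscle and 1.01 ± 0.26 (adjusted p = 0.0230) in STZ TKO against STZ floxed muscle. The STZ TKO against STZ floxed call was lost without STZ floxed library 17 or 21 (highest adjusted p 0.0655), without libraries 4, 15, 16 and 20 (0.0660) and without libraries 17 and 18 (0.0890), while the call in STZ floxed against floxed muscle held in all 21 leave-one-out fits.

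Kcng4 (chromosome 8, 119623854 to 119635680) had the same order of groups with a wider gap. It had 29.0, 51.6 and 60.9 CPM (lowest, median, highest) in STZ TKO libraries, against 18.4, 12.6, 8.06, 0.545 and 13.0 CPM in STZ floxed libraries. Untreated muscle had 25.45, 64.5 and 89.5 CPM in TKO libraries, against 70.2, 44.3, 73.0 and 61.7 CPM in floxed libraries. No STZ floxed library reached the lowest value of any other group, and library 17 held the 0.545. The log2 fold change was -2.57 ± 0.47 (edgeR adjusted p = 0.00837) in STZ floxed against floxed muscle and 2.19 ± 0.44 (adjusted p = 0.00494) in STZ TKO against STZ floxed muscle. Both calls were kept in all 21 leave-one-out fits and in all 12 other settings, with log2 fold changes of -2.89 to -2.20 and 1.88 to 2.55. In the interaction its log2 value was 2.20 ± 0.60, with an unadjusted p of 0.0014 and an edgeR adjusted p of 0.9996.

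Kcnf1 (Kv5.1), another silent subunit, was higher under STZ. It had 3.09, 8.92 and 53.4 CPM (lowest, median, highest) in STZ TKO libraries, against 1.84, 2.69 and 4.38 CPM in TKO libraries. In floxed mice it had 10.7, 29.1, 17.9, 11.3 and 19.6 CPM with STZ, against 5.01, 7.80, 5.86 and 7.69 CPM without. All STZ floxed libraries lay above all floxed libraries; of the STZ TKO libraries, 11 and 18 had 45.1 and 53.4 CPM and library 4 lay within the TKO range. The log2 fold change was 2.87 ± 0.57 (edgeR adjusted p = 0.0426) in STZ TKO against TKO muscle and 1.42 ± 0.62 (adjusted p = 0.288) in STZ floxed against floxed muscle. Averaged over genotype it was 2.15 ± 0.42 (edgeR adjusted p = 0.00660), which was kept in all 21 leave-one-out fits and 12 other settings. The STZ TKO against TKO call was kept in only 5 of 21 leave-one-out fits (highest adjusted p 0.132), and without library 11 or 18 it was among those lost.

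Kcnq5 (Kv7.5), a subunit of slow, non-inactivating currents, was higher in STZ TKO muscle. It had 16.9, 23.3 and 27.8 CPM (lowest, median, highest) in STZ TKO libraries, against 11.7, 11.3, 11.4, 2.91 and 12.2 CPM in STZ floxed libraries, with no overlap. In untreated muscle TKO libraries had 9.45, 19.9 and 25.3 CPM, against 17.0, 17.3, 19.6 and 20.2 CPM in floxed libraries, and the TKO range enclosed the floxed one. The log2 fold change under STZ was 1.20 ± 0.29 (edgeR adjusted p = 0.0162) and was called in all 21 leave-one-out fits and 12 other settings. Kcna7, the most abundant member of the family, had 276, 344 and 461 CPM in STZ TKO libraries, against 287, 220, 255, 252 and 263 CPM in STZ floxed libraries. TKO libraries had 219, 515 and 688 CPM, against 540, 534, 402 and 467 CPM in floxed libraries. STZ floxed libraries lay below all floxed libraries (log2 fold change -0.93 ± 0.23, edgeR adjusted p = 0.0474), a call kept in 8 of 21 leave-one-out fits and 6 of 12 other settings. Its averaged STZ effect was -0.72 ± 0.15 (edgeR adjusted p = 0.00982). That call was kept in all 21 leave-one-out fits and 11 of 12 other settings. It was lost with the skeletal fibre marker level as a covariate (-0.64, edgeR adjusted p = 0.0570).

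Kcnh2 (ERG1, Kv11.1) averaged 3.09 ± 1.48 CPM in STZ TKO, 1.03 ± 0.556 CPM in STZ floxed, 5.26 ± 3.18 CPM in TKO and 3.26 ± 1.69 CPM in floxed libraries (SD), from 3 to 60 counts a library. Its log2 fold change was 1.65 ± 0.47 (edgeR adjusted p = 0.0447) in STZ TKO against STZ floxed muscle, kept in 11 of 21 leave-one-out fits, and was 1.14 (adjusted p = 0.249) without libraries 4, 15, 16 and 20. The delayed rectifier Kcna1 (Kv1.1) was lower in the averaged knockout effect, by -0.66 ± 0.20 (edgeR adjusted p = 0.0330). That call was kept in 13 of 21 leave-one-out fits (highest adjusted p 0.101) and lost with no filter (0.0521) and with the macrophage (0.413) or denervation (0.182) marker level as a covariate. Kcna2, Kcna5, Kcnd1 and Kcns3 of the same family passed in no comparison.

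**Figure D3:**
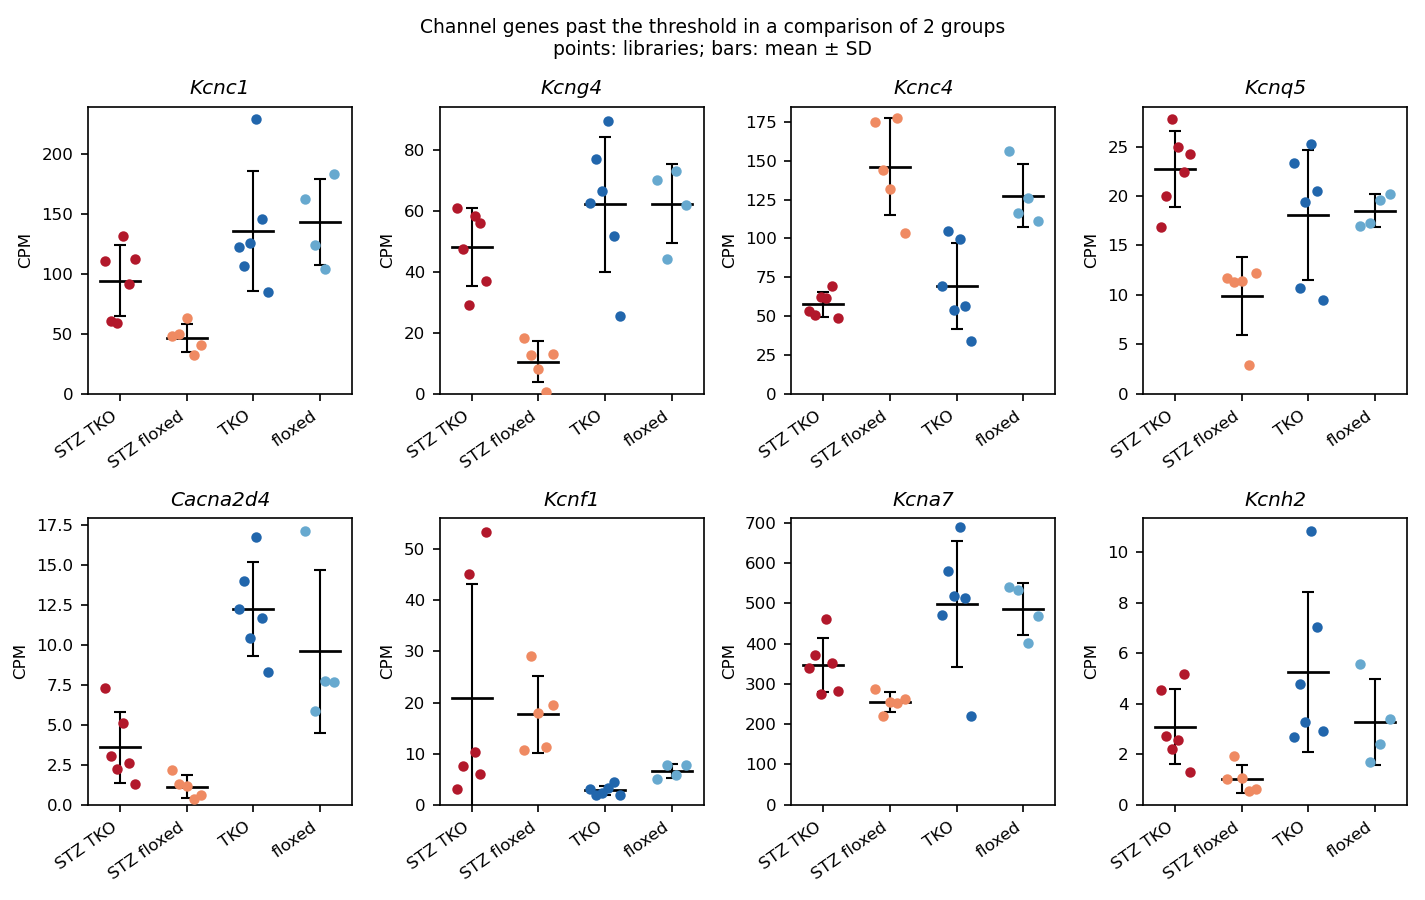
CPM of the 8 channel genes named in the panels, per library (points) with the group mean and SD (bars), with STZ TKO and STZ floxed left of TKO and floxed. Kcnc4 is lower in both knockout groups than in their floxed groups, Kcnc1 and Kcng4 are lowest in STZ floxed libraries, and 2 STZ TKO libraries hold the highest Kcnf1 values.

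Among calcium channel subunits the low-abundance Cacna2d4 changed, while no subunit of the coupling complex passed the test. Cacna2d4 (chromosome 6, 119236526 to 119352407), an alpha2delta subunit best known from photoreceptors, had 1.29, 2.81 and 7.31 CPM (lowest, median, highest) in STZ TKO libraries, against 2.19, 1.295, 1.17, 0.364 and 0.617 CPM in STZ floxed libraries. Untreated TKO libraries had 8.29, 12.0 and 16.8 CPM, against 17.1, 5.85, 7.75 and 7.69 CPM in floxed libraries. All STZ floxed libraries lay below all floxed libraries, and all STZ TKO libraries below all TKO libraries. The counts were 2 to 15 a library in STZ floxed muscle and 21 to 123 in floxed muscle. The log2 fold change was -3.07 ± 0.47 (edgeR adjusted p = 0.00121) in STZ floxed against floxed muscle, -1.75 ± 0.37 (adjusted p = 0.0515, not called; -1.97 and 0.00440 with the run of library codes as a term) in STZ TKO against TKO muscle, and -2.41 ± 0.30 (edgeR adjusted p = 5.63e-05) averaged over genotype. In STZ TKO against STZ floxed muscle it was 1.65 ± 0.45 (edgeR adjusted p = 0.0347), kept in 15 of 21 leave-one-out fits. The gene Lrtm2 lies within Cacna2d4 on the opposite strand, with no shared exon bases in the annotation, and had 574 counts in all against 727 for Cacna2d4. Its log2 fold changes were -3.02 ± 0.69 in STZ floxed against floxed muscle (edgeR adjusted p = 0.0316) and 2.57 ± 0.67 in STZ TKO against STZ floxed muscle (adjusted p = 0.0256). The strand setting of the counting is not given in the sources used here, so the 2 genes' reads may not be fully separate.

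Cacna1s had 1654, 2889 and 3604 CPM (lowest, median, highest) in STZ TKO libraries, against 2383, 2192, 2353, 692 and 2565 CPM in STZ floxed libraries. TKO libraries had 1089, 2400 and 3524 CPM, against 2450, 2352, 1842 and 2496 CPM in floxed libraries. The groups overlapped, library 17 held the 692, and the log2 fold changes ran from -0.17 to 0.38 in the 4 comparisons of 2 groups, none past the threshold. Its partners Cacna2d1, Cacnb1 and Cacng1 passed in no comparison either; Cacng1 averaged 267 ± 60.2 CPM in STZ TKO, 310 ± 44.8 CPM in STZ floxed, 305 ± 142 CPM in TKO and 218 ± 53.2 CPM in floxed libraries (SD). The L-type pore Cacna1d (Cav1.3), known from pacemaker and endocrine cells, was 0.854, 3.69 and 6.65 CPM in STZ TKO libraries, against 0.730, 0.971, 0.910, 1.27 and 1.23 CPM in STZ floxed libraries. TKO libraries had 0.899, 1.23 and 5.53 CPM, against 0.836, 0.557, 0.344 and 0.894 CPM in floxed libraries. High values were held by STZ TKO libraries 4, 15 and 18 and TKO libraries 16 and 20, and the other knockout libraries lay at 1.36 CPM or below. Its averaged knockout effect was 1.85 ± 0.45 (edgeR adjusted p = 0.00965), and 0.14 (adjusted p = 0.960) with the macrophage marker level as a covariate. Cacna1d shares 4.67% of its exon bases with Chdh on the opposite strand. The T-type pores Cacna1g and Cacna1h passed in no comparison.

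Among the sodium channels of the fibre, neither the pore gene Scn4a nor the beta subunit gene Scn4b passed in any comparison. Scn4a had 403, 767 and 869 CPM (lowest, median, highest) in STZ TKO libraries, against 583 to 1190 CPM in STZ floxed, 412 to 1158 CPM in TKO and 834 to 1200 CPM in floxed libraries, and the groups overlapped. Scn4b, the beta4 subunit, averaged 420 ± 132 CPM in STZ TKO, 488 ± 265 CPM in STZ floxed, 482 ± 176 CPM in TKO and 691 ± 29.0 CPM in floxed libraries (SD), and was at 72.0 CPM in library 17. Scn7a, the sodium-level sensor Nax of non-excitable cells and nerve, was higher in the averaged STZ effect by 0.59 ± 0.16 (edgeR adjusted p = 0.0422), kept in 8 of 21 leave-one-out fits and lost without libraries 17 and 18 (adjusted p = 0.106).

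**Figure D4:**
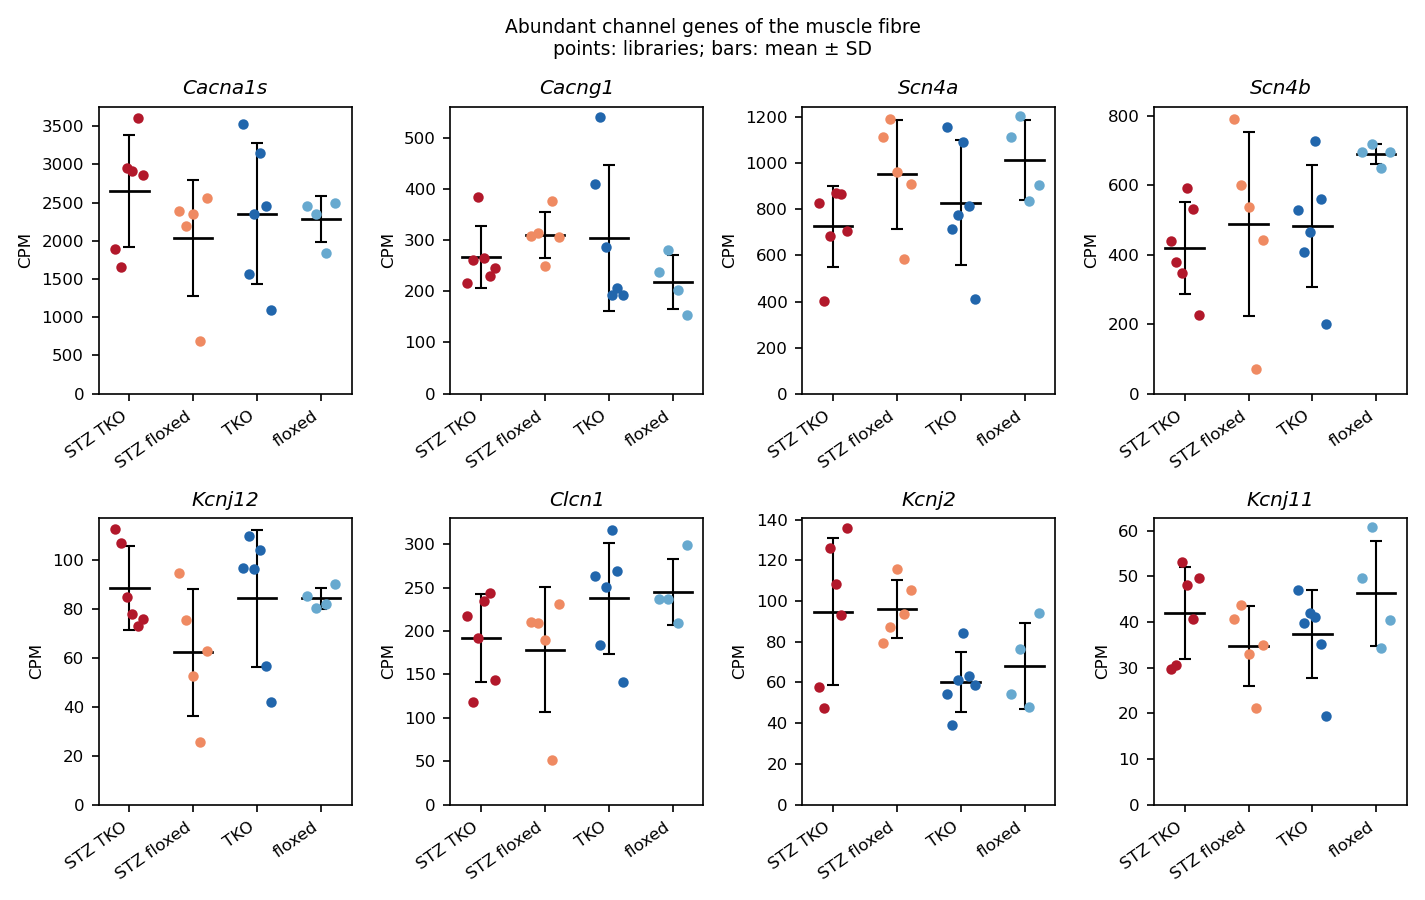
CPM of 8 abundant channel genes of the fibre per library (points) with the group mean and SD (bars). The groups overlap for Cacna1s, Scn4a, Clcn1 and Kcnj11, and 1 STZ floxed library (17) is low for Cacna1s, Scn4b and Clcn1.

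Chloride and inward rectifier channels, which set the resting membrane, passed in no comparison of 2 groups. Clcn1, the ClC-1 channel whose loss causes myotonia, averaged 192 ± 50.7 CPM in STZ TKO, 179 ± 72.3 CPM in STZ floxed, 238 ± 63.6 CPM in TKO and 245 ± 37.8 CPM in floxed libraries (SD), and library 17 had 52.0 CPM. Its log2 fold changes ran from -0.46 ± 0.31 in STZ floxed against floxed muscle to 0.10 ± 0.28 in STZ TKO against STZ floxed muscle. Kcnj2 (Kir2.1) averaged 94.8 ± 35.9 CPM in STZ TKO, 96.2 ± 14.3 CPM in STZ floxed, 60.1 ± 14.7 CPM in TKO and 68.2 ± 21.2 CPM in floxed libraries, and its averaged STZ effect of 0.58 ± 0.18 had an adjusted p of 0.0661 in edgeR. Kcnj11, the pore of the ATP-sensitive potassium channel, averaged 42.0 ± 10.0 CPM in STZ TKO, 34.7 ± 8.72 CPM in STZ floxed, 37.4 ± 9.58 CPM in TKO and 46.3 ± 11.5 CPM in floxed libraries. Kcnj12 and the vascular Kcnj8 did not pass either. All 5 endosomal and lysosomal transporters were tested. Of these Clcn3, which exchanges chloride for protons in endosomes, was lower in the averaged knockout effect by -0.58 ± 0.16 (edgeR adjusted p = 0.0266), kept in 18 of 21 leave-one-out fits, and was -0.22 (adjusted p = 0.807) with the macrophage marker level as a covariate. Clcn4, Clcn5, Clcn6 and Clcn7 passed in no comparison.

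A set of low-abundance potassium channel genes was higher in knockout muscle, with the highest values in a few libraries. In untreated muscle every TKO library lay above every floxed library for Kcnab2. The same held for Kcnn4 except in TKO library 13 (0.181 CPM, others 1.80 to 4.42 CPM). Kcnn4 (KCa3.1), a calcium-activated channel of macrophages and other blood cells, had 5.20, 0.607, 0.511, 0.342, 4.54 and 0.324 CPM in STZ TKO libraries 4, 8, 11, 12, 15 and 18, against 0.309 to 0.545 CPM in STZ floxed libraries. TKO libraries had 0.181, 2.52 and 4.42 CPM (lowest, median, highest), against 0.179 to 1.11 CPM in floxed libraries. Kcnab2, a cytoplasmic beta subunit of Kv1 channels, reached 6.82 and 4.87 CPM in STZ TKO libraries 4 and 15, against 0.771 to 1.56 CPM in STZ floxed libraries, and 1.499 to 4.22 CPM in TKO libraries, against 0.517 to 1.07 CPM in floxed libraries. Kcnk13 (THIK-1), a two-pore channel known from microglia, reached 3.90 CPM in STZ TKO library 4 and 5.09 CPM in TKO library 20. Kcnn3 (SK3), a channel of denervated muscle, had its highest values in STZ TKO library 15, at 15.6 CPM, and TKO library 20, at 27.9 CPM.

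In the knockout effect averaged over STZ the log2 fold changes were 2.23 ± 0.57 for Kcnn4 (edgeR adjusted p = 0.0147), 1.54 ± 0.39 for Kcnab2 (0.0132), 1.60 ± 0.51 for Kcnk13 (0.0472) and 1.05 ± 0.33 for Kcnn3 (0.0455). None of the 4 passed in a single comparison of 2 groups. With the macrophage marker level as a covariate the values were -0.28 for Kcnn4, -0.12 for Kcnab2, -0.20 for Kcnk13 and 0.25 for Kcnn3, none called. That level did not overlap between knockout and floxed libraries, so a call lost with it cannot be told from an adjustment for genotype. With the denervation marker level as a covariate the log2 fold changes were 1.21, 0.78, 0.01 and 0.23 in the same order of genes, none called. Kcnk13 passed the filter in only 11 leave-one-out fits and kept its call in 4 of them, Kcnn3 kept its call in 8 of 21, and Kcnn4 and Kcnab2 kept theirs in all. Kcnn2 (SK2), of the same family as Kcnn3 and Kcnn4, averaged 1.29 ± 0.847 CPM in STZ TKO, 0.744 ± 0.274 CPM in STZ floxed, 3.19 ± 1.23 CPM in TKO and 1.56 ± 0.381 CPM in floxed libraries (SD). It was lower in the averaged STZ effect by -1.17 ± 0.34 (edgeR adjusted p = 0.0480), a call kept in 5 of 21 leave-one-out fits. Whether macrophages or denervated fibres carry these transcripts was not tested.

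**Figure D5:**
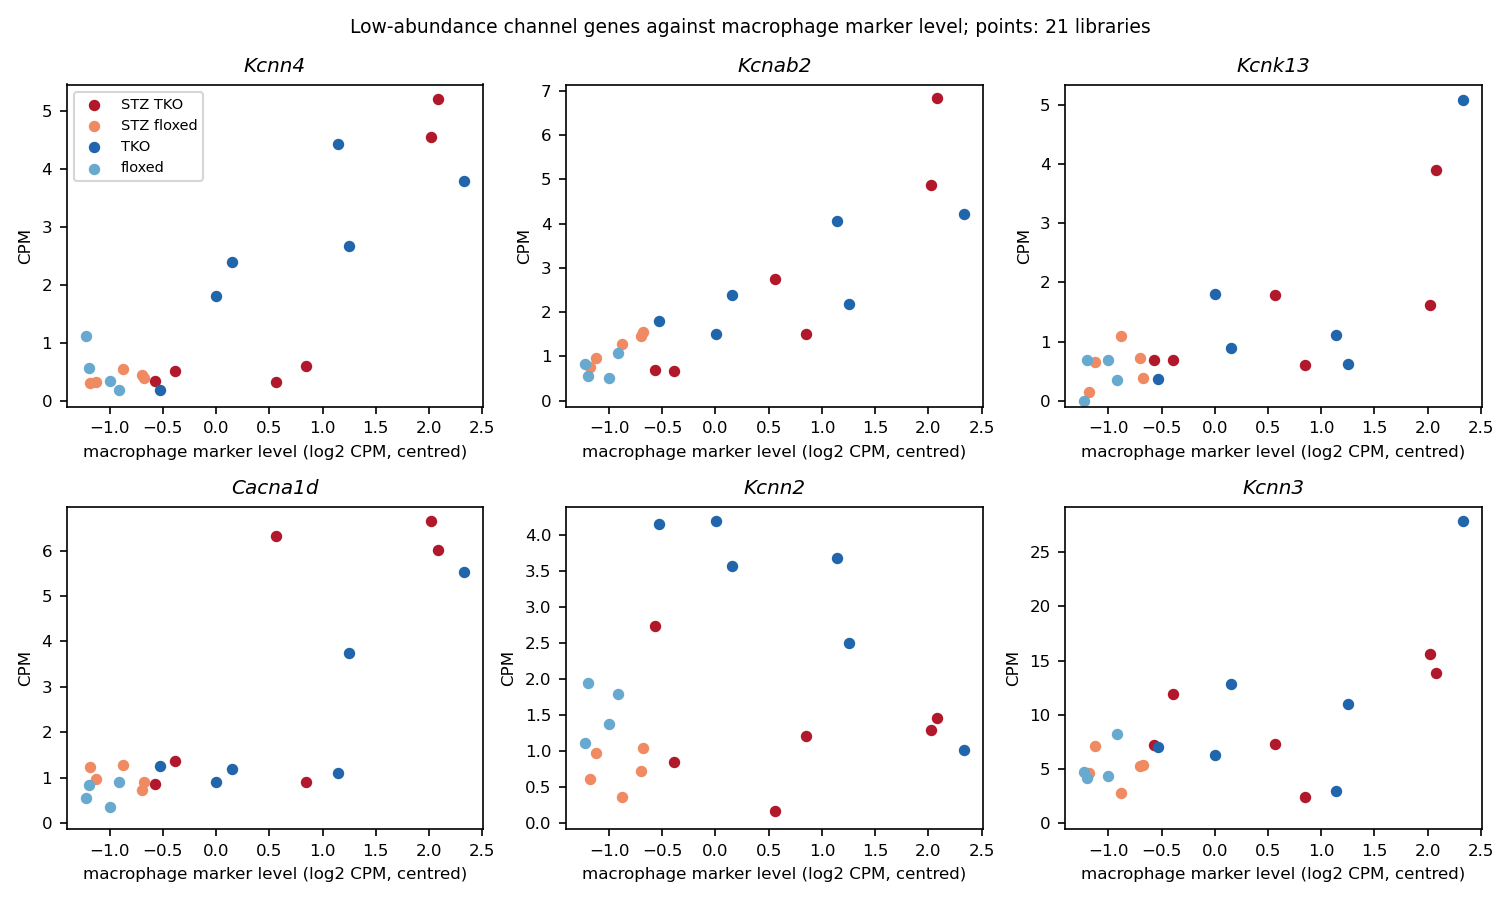
CPM of 6 low-abundance channel genes (vertical axes) against the mean level of 14 macrophage markers (horizontal axes, log2 CPM centred on each gene's mean), with 1 point for each of 21 libraries. The 2 highest values of Kcnn4, Kcnab2 and Kcnk13 lie among libraries with macrophage levels above 1, and the highest Kcnn3 value belongs to TKO library 20.

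Without libraries 4, 15, 16 and 20, the averaged knockout effect called 2 members, Kcnc4 and Kcna1, both lower, against 11 with all libraries. All 4 are knockout libraries, so every gene was tested with fewer of them. The fall in calls cannot be read as particular to channel genes. Kcnn4, Kcnk13 and Cacna1d did not pass the filter on low counts there and were not tested. The STZ effect averaged over genotype called 13 members without them. Without libraries 17 and 18 it called 6, among them Cacna2d4, Kcna7, Kcnc1, Kcng4 and Kcnf1, and STZ floxed against floxed called 3: Cacna2d4, Kcnc1 and Kcng4. Fibroblast markers were also lower in STZ floxed against floxed muscle, with a median log2 fold change of -1.15 over 7 genes and 2 called (Col1a1 and Col1a2). Skeletal fibre markers had a median of -0.44 over 10 genes in that comparison, with none called.

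A list of core muscle channels had 17 members tested. In STZ TKO against STZ floxed muscle 1 was called higher (Kcnq5) and 1 lower (Kcnc4), beside 4.89% of all genes. In STZ floxed against floxed muscle 1 was lower (Kcna7), beside 1.35% of all genes. None was called in TKO against floxed or STZ TKO against TKO muscle. The averaged knockout effect called Kcnn3 higher and Kcnc4 lower, beside 9.80% of all genes. The averaged STZ effect called 2 lower, Kcna7 among them, beside 4.54% of all genes. A separate list of 42 genes that work with these channels (calcium release, sodium pump, transverse tubule and anchoring genes) had 37 tested. In STZ TKO against STZ floxed muscle 2 of the 37 were higher, a share near the 4.89% of all genes called. In the averaged knockout effect 4 of the 37 passed, near the 9.80% of all genes. Casq1, the calcium buffer of the fast-fibre sarcoplasmic reticulum, averaged 3906 ± 956 CPM in STZ TKO and 1575 ± 719 CPM in STZ floxed libraries (SD), a log2 fold change of 1.31 ± 0.34 (edgeR adjusted p = 0.0236). Untreated libraries averaged 5246 ± 1608 CPM in TKO and 3838 ± 888 CPM in floxed muscle, so STZ floxed was the low group. Casq1 was also lower in the averaged STZ effect, by -0.86 ± 0.24 (edgeR adjusted p = 0.0415). Lrrc52, an auxiliary subunit of calcium-activated potassium channels, averaged 5.41 ± 3.89 CPM in STZ TKO and 1.34 ± 0.726 CPM in STZ floxed libraries, a log2 fold change of 1.99 ± 0.53 (edgeR adjusted p = 0.0283). In the averaged knockout effect Casq1, Rrad, which restrains L-type channels, and Atp1b4 were higher and dystrophin, Dmd, was lower, and no partner gene passed in STZ floxed against floxed, STZ TKO against TKO or TKO against floxed muscle.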

How the data were processed

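The authors deposited raw read counts per gene for 21 libraries. Per the submitters' processing notes, reads were aligned with STAR and counted with featureCounts on GRCm38.p4. Their versions, the strand setting and the annotation were not given in the sources used here. Identifiers were named with GENCODE mouse release M21: 45229 of 46071 matched a symbol, and the rest held 0.0478% of counts. Library pairs all differed by more than sampling noise: the lowest chi-square per degree of freedom was 8.61 over 46 same-group pairs and 10.1 over 164 others.

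Counts were tested with edgeR 4.0.16 in R 4.3.3: filterByExpr by group, TMM scaling, a robust quasi-likelihood fit of 4 group means to all 21 libraries, 7 two-sided contrasts, and Benjamini-Hochberg adjustment over all genes tested at 0.05. CPM uses TMM-adjusted library sizes, and per-kb levels divide by summed exon length. The SE of a log2 fold change is its size over the square root of the quasi-likelihood F, so it includes the spread between libraries. Alternatives were other scalings, DESeq2 1.42.0, other filters, the run of library codes as a term, marker levels as covariates, and libraries left out. The fit was also run on simulated counts with known changes between TKO and floxed. Those counts held no marker shifts shared across a library, so that run does not bear on such shifts.

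The members and lists were chosen with earlier results of these data known. Named were the core muscle channels, members past the threshold, the 5 highest and 5 lowest fold changes per comparison of 2 groups, the 10 highest per kb, and members of families with at most 5 tested. Promoters are from RefSeq. Some members are not reported by name here, though the counts include them.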

Additional observations from a re-analysis of the deposited data

Results flagged for a closer look

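Among 172 groups of 4 to 6 libraries over the named members, 17 (9.88%) held a library that stood far from the others of its group. The measure was Dixon's ratio, the gap to the nearest library over the group's range, taken on log2 CPM. Chance flags about 1 in 20 such groups. The values printed are in CPM, on which scale the ratios differ.

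STZ floxed library 17 held 8 of the 17. It was low at 692 for Cacna1s (others 2190 to 2560), 24.7 for Cacnb1 (120 to 192), 52.0 for Clcn1 (190 to 232), 56.7 for Clcn3 (89.9 to 106), 0.545 for Kcng4 (8.06 to 18.4), 2.91 for Kcnq5 (11.3 to 12.2) and 72.0 for Scn4b (442 to 790). It was high at 5.09 for Cacng4 (0.971 to 1.23), an auxiliary gamma subunit. The same library had the lowest skeletal fibre marker level, -1.79, and their part in each other was not tested.

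TKO library 20 was low at 219 for Kcna7 (others 470 to 688) and 19.5 for Kcnj11 (35.2 to 47.1). STZ TKO library 8 was low at 0.303 for Cacna1h (3.25 to 8.45) and 403 for Scn4a (686 to 869). STZ TKO library 11 was high at 384 for Cacng1 (216 to 266), and STZ TKO library 18 was low at 1.78 for Kcna5 (5.20 to 6.37). TKO library 2 was low at 0.300 for Cacnb4 (1.62 to 2.98), TKO library 13 was low at 0.181 for Kcnn4 (1.80 to 4.42), and floxed library 1 was low at 0.975 for Kcne4 (2.23 to 2.33).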

How the results depend on the processing

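Counts of channel genes called with edgeR were 6 in STZ TKO against STZ floxed, 5 in STZ floxed against floxed, 1 in STZ TKO against TKO, 11 in the averaged knockout effect, 11 in the averaged STZ effect, and 0 in TKO against floxed and in the interaction. In the same order, leaving out each library in turn gave 3 to 7, 3 to 6, 0 to 2, 5 to 14, 5 to 12, 0 to 1 and 0 to 0. DESeq2 gave 7 in STZ TKO against STZ floxed, 8 in STZ floxed against floxed and 2 in STZ TKO against TKO. It gave 17 in the averaged knockout effect, 13 in the averaged STZ effect and 1 in TKO against floxed. The run of library codes as a term gave 7 in STZ TKO against STZ floxed and 7 in STZ floxed against floxed. It gave 17 in the averaged knockout effect, 12 in the averaged STZ effect and 1 in TKO against floxed. RLE size factors gave 2 in STZ TKO against TKO. Cacna2d4 was gained in STZ TKO against TKO with RLE, DESeq2, no filter, the run term, each marker covariate and without libraries 4, 15, 16 and 20 (adjusted p 0.00174 to 0.0478). Without libraries 4, 15, 16 and 20 the counts were 3 in STZ TKO against STZ floxed, 2 in STZ TKO against TKO and 2 in the averaged knockout effect. The macrophage covariate, whose level did not overlap between knockout and floxed libraries, gave 3, 2 and 0 there. The denervation covariate gave 2 in STZ TKO against TKO and 5 in the averaged knockout effect. Without libraries 17 and 18 the counts were 3 in STZ floxed against floxed, 0 in STZ TKO against TKO and 6 in the averaged STZ effect. A skeletal fibre covariate, chosen after seeing the data, gave 3, 2 and 5 in those comparisons. The same covariate gave more calls elsewhere, 8 in STZ TKO against STZ floxed and 14 in the averaged knockout effect. The signs of Kcnab2 (-0.12), Kcnn4 (-0.28) and Kcnk13 (-0.20) in the averaged knockout effect turned with the macrophage covariate. The cause of these changes in count and sign was not tested, also where libraries were left out. Shares of all genes called are not given for these settings, so a change in count cannot be read as particular to channel genes. No paired analysis was possible because the title numbers are unique to each library and match no library of one group with one of another. The run of consecutive library codes, a block of order and not of stated pairs, was the term fitted above. Of 21 libraries, those with the fewest counts give 0.369 CPM to 1 count, which limits the members under 1 CPM.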
